A study of Mus musculus with 4 samples.

Results

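The regions described here are stretches of mouse colonic epithelial chromatin that the authors listed as H3K27ac-enriched after dextran sulfate sodium (DSS) and that overlapped a binding site of the transcription factor HNF4A. They were selected on measured values, namely from the authors' list of 1000 regions of highest H3K27ac score in DSS over water, as those sharing at least 1 bp with an HNF4A peak of either the DSS or the water library. This gave 229 of the 1000 DSS-enriched regions, or 22.9% (exact Clopper-Pearson 95% interval 20.3 to 25.6), out of 2000 regions in the DSS-enriched and water-enriched lists together. The same overlap was found in 483 of the 1000 water-enriched regions. The authors labelled both lists as 2 kb away, and the smallest distance to their unnamed reference point was 2.01 kb in each. After overlapping intervals were merged, the 229 DSS-enriched regions formed 209 separate sites, because 40 of the 229 overlapped another.

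The study mapped H3K27ac and HNF4A by ChIP-seq in epithelium scraped from the colon of adult mice 2 to 4 months old. The DSS groups had received 3% DSS for 6 days, and the control groups had received water alone. Each of the 4 groups (H3K27ac in DSS, H3K27ac in water, HNF4A in DSS and HNF4A in water) had 1 library. The labels name neither strain nor sex and do not say whether animals were pooled, and no difference below has a replicate check or a p-value. Scraped epithelium can contain other cells, so a change in the make-up of the scraping and a change of acetylation within a cell cannot be told apart here.

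HNF4A, a member of the nuclear receptor family, binds DNA as a dimer and maintains the gene programme of differentiated intestinal epithelium. H3K27ac is laid down by acetyltransferases such as p300 and CBP at active enhancers and promoters, and at a bound enhancer it typically sits on the nucleosomes that flank the factor. DSS injures the colonic lining and produces colitis, in which absorptive epithelium is lost and a repair response begins.

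Library totals for H3K27ac were 10329416 tags in DSS, against 10143920 in water, and the HNF4A lists held 10688 peaks in DSS and 17886 in water, each peak 600 bp wide. From the column headings, each region was read as having a count of nucleosome tags and a count of tags on the linker DNA in between. The DSS H3K27ac library stood apart from the water library on the Y chromosome, where 10 DSS-enriched and 0 water-enriched regions lay. Of these 10, 0 held an HNF4A peak, so none is among the 229. The labels give no sex, and whether the H3K27ac libraries differ in the sex of their animals was not tested. Ratios below are DSS over water after division by the library totals, with exact conditional 95% intervals that cover counting error only.

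The 229 HNF4A-bound regions held a median of 155 nucleosome tags in DSS (quartiles 100 and 218) and 70.0 in water (quartiles 33.0 and 126). The median ratio was 2.09 and the median log2 ratio 1.06 (quartiles 0.70 and 1.56). More than 2-fold more nucleosome tags were found in DSS in 125 of the 229 regions, or 54.6%, where 71.7% of the whole DSS-enriched list passed that fold. The interval of the ratio lay above 1 in 209 regions (91.3%, against 95.8% of the list) and held 1 in the other 20, of which 4 had a ratio below 1. The authors chose the list on these same counts, so the gain itself is a description of how the regions were selected.

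**Figure D1:**
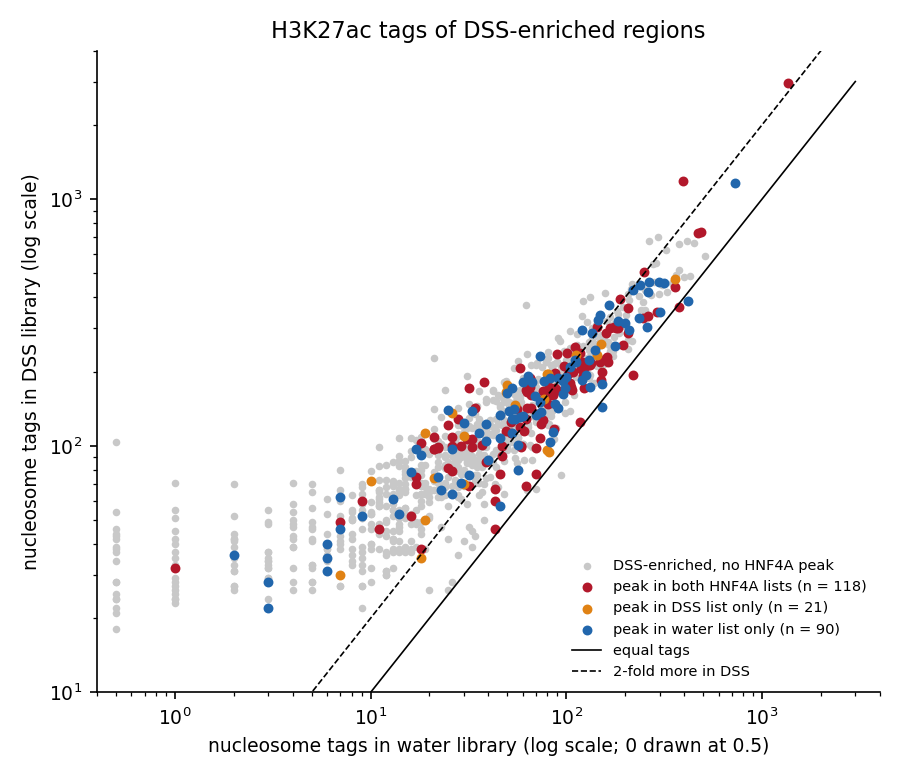
H3K27ac nucleosome tags of each DSS-enriched region in the DSS library (vertical axis) and the water library (horizontal axis), both on log scales; coloured points are the 229 regions with an HNF4A peak, by the HNF4A list that holds it, and grey points the 771 without one. The coloured points crowd towards the upper right, with medians of 155 tags in DSS, against 70.0 in water, while the 18 regions with no water tag, drawn at 0.5, are all grey.

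The occupancy of HNF4A in the DSS and water libraries divides the regions into 3 classes. A peak was present in both HNF4A lists in 118 of the 229 regions (51.5%), in the DSS list only in 21 (9.17%) and in the water list only in 90 (39.3%). Since the water list is the longer one, this split depends on where each list ends: with the water list held to its 10688 strongest peaks the counts were 94 in both, 45 in DSS only and 42 in water only. With the full water list, 208 of the 229 regions were listed as occupied in uninjured epithelium. Of the 483 water-enriched regions with HNF4A, 305 (63.1%) held a peak in both full lists, 24 (4.97%) in DSS only and 154 (31.9%) in water only. Over the whole lists, 10688 DSS and 17886 water peaks formed 7343 one-to-one overlapping pairs, so peaks in no such pair were common. Whether the split is particular to the 229 regions was not tested.

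Among the 118 regions occupied in both libraries, that of highest deposited score was found close to the beginning of chromosome 18 (3005331 to 3005961, mm9). It held 2955 nucleosome tags in DSS, against 1355 in water, which gives a ratio of 2.14 (interval 2.01 to 2.29). The next lay on chromosome 15 (74916726 to 74917261) with 1181 tags in DSS, against 394 in water, which gives a ratio of 2.94 (2.62 to 3.31). Their HNF4A peaks were among the strongest of either list, ranked 31 of 10688 in the DSS list and 36 of 17886 in the water list on chromosome 18, and 7 in both lists on chromosome 15. Only 1 further region, on chromosome 1 (39243496 to 39244016), lay on the strongest 1% of either list; it held 300 tags in DSS, against 183 in water. These 3 regions were not compared with a list of known artefact regions.

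The other regions among the 6 of highest score with HNF4A in both libraries held far fewer tags and larger ratios than those on chromosomes 18 and 15. On chromosome 4 (95067701 to 95068286) there were 171 nucleosome tags in DSS, against 32 in water, which gives a ratio of 5.25 (3.58 to 7.91), with a peak centre 27.5 bp from the middle of the region in both HNF4A libraries. On chromosome 1 (193617621 to 193618171) there were 181 tags in DSS, against 38 in water, which gives a ratio of 4.68 (3.28 to 6.82), on HNF4A peaks ranked 234 in the DSS list and 349 in the water list. This was the strongest HNF4A site of either list among bound regions with more than 4-fold more tags in DSS. On chromosome 3 a region (28484921 to 28485451) held 122 tags in DSS, against 25 in water, and one on chromosome 5 (64147096 to 64147616) held 97 in DSS, against 21 in water. Both of these lay on weak peaks of the DSS list, ranked 10473 and 10282 of 10688.

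The 21 regions with a peak in the DSS list only had a listed HNF4A site in injured epithelium but none in the water list. Their highest score belonged to a region on chromosome 17 (46299726 to 46300316) with 259 nucleosome tags in DSS, against 151 in water, which gives a ratio of 1.68 (1.37 to 2.07). The largest gain by the lower end of its interval was on chromosome 12 (112676231 to 112676816), with 72 tags in DSS, against 10 in water, which gives a ratio of 7.07 (3.63 to 15.4). Its DSS peak was weak, ranked 10163 of 10688, and was centred outside the region, 566 bp from the middle. On chromosome 9 (77364406 to 77365031) there were 136 tags in DSS, against 26 in water, which gives a ratio of 5.14 (3.36 to 8.14), and the DSS peak, ranked 6389, was centred 48.5 bp from the middle of the region. The DSS peaks of this class were mostly weak, with a median rank percentile of 18.2 in the DSS list, where 100 is the strongest. The region of this class on chromosome 18 (73999206 to 73999731) was already acetylated in water, with 474 tags in DSS, against 360 in water, which gives a ratio of 1.29 (1.13 to 1.49).

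Among the 90 regions with a peak in the water list only, a neighbouring pair on chromosome 2 shared 1 HNF4A peak, ranked 4752 in water. The first of the pair (173146671 to 173147256) held 231 nucleosome tags in DSS, against 73 in water, which gives a ratio of 3.11 (2.38 to 4.10). The second (173147256 to 173147716) held 97 in DSS, against 17 in water, which gives a ratio of 5.60 (lower end of the interval 3.33). In the first, the peak centre lay 34.5 bp from the middle of the region; in the second it lay 488 bp away. A region on chromosome 7 (134621711 to 134622241) was strongly acetylated in both libraries, with 1160 tags in DSS, against 728 in water, which gives a ratio of 1.56 (1.43 to 1.72). On chromosome 5 (124500321 to 124500821) the counts were 164 in DSS, against 50 in water, on chromosome 4 (129866781 to 129867401) 189 in DSS, against 83 in water, and on chromosome 1 (92938106 to 92938671) 288 in DSS, against 135 in water.

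**Figure D2:**
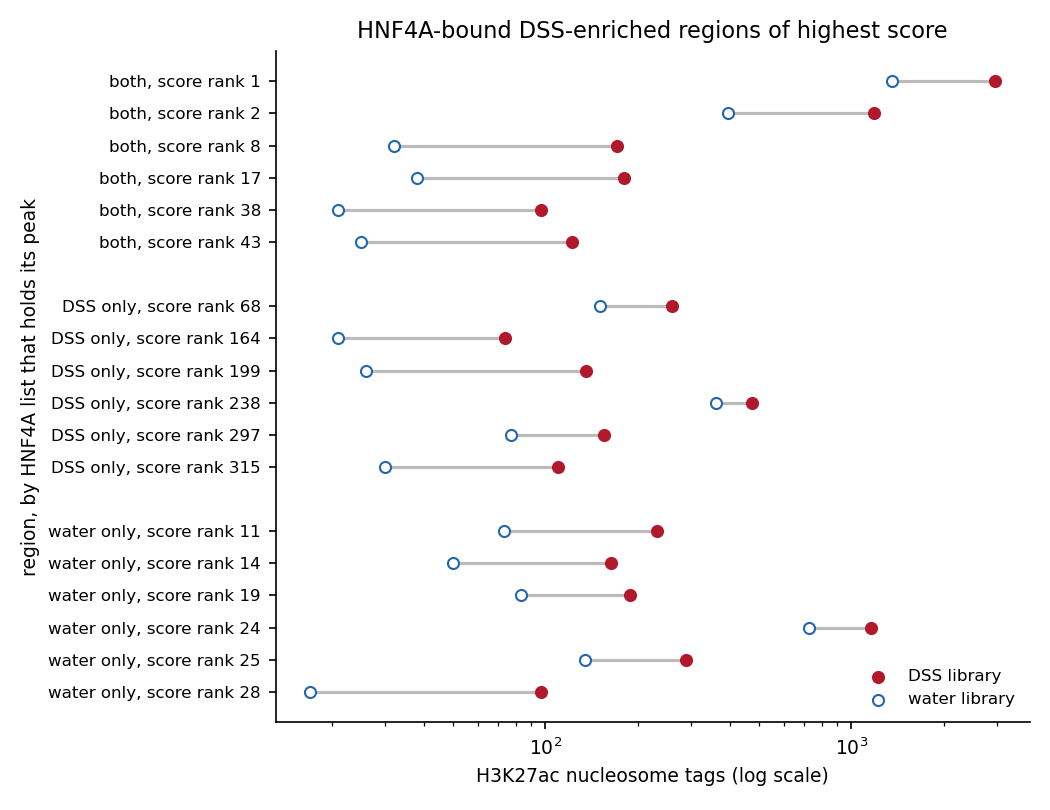
H3K27ac nucleosome tags (log scale) in the DSS library (filled) and the water library (open) for the 6 regions of highest deposited score in each HNF4A class, labelled by class and by rank of the score in the DSS-enriched list. Each region holds more tags in DSS; the region of rank 1 has 2955 tags in DSS, against 1355 in water, and the DSS-only region of rank 238 has the smallest ratio of those drawn, with 474 tags in DSS, against 360 in water.

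The 3 classes had overlapping ratios. The median log2 nucleosome ratio was 0.99 with HNF4A in both libraries (n = 118, quartiles 0.67 and 1.47), 1.26 with HNF4A in the DSS list only (n = 21, quartiles 0.91 and 1.78) and 1.14 with HNF4A in the water list only (n = 90, quartiles 0.73 and 1.62). The quartile ranges of the classes overlap widely, and the differences between classes were not tested. The classes differed in peak strength: water peaks had a median rank percentile of 73.3 in regions with both peaks and 35.6 in regions with a water peak only. Classes were made by whether a peak reached each list, so this difference, like the low ranks of DSS-only peaks, is partly built in.

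The largest ratios, ordered by the lower end of the interval, were mostly in regions with few tags in water. On chromosome 4 (111410056 to 111410666) a region with HNF4A in both lists held 32 nucleosome tags in DSS, against 1 in water, which gives a ratio of 31.4 whose interval runs from 5.25 to 1280. On chromosome 14, a region on a water HNF4A peak (76263401 to 76263991) held 36 tags in DSS, against 2 in water. Another on the same chromosome (76728486 to 76729031) held 62 in DSS, against 7 in water. On chromosome 6 (146742041 to 146742561) a region on a water peak held 140 tags in DSS, against 25 in water, which gives a ratio of 5.50 (3.58 to 8.79). Nearly unacetylated regions were uncommon among the bound ones, of which 13 of 229 (5.68%) held under 10 nucleosome tags in water.

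HNF4A-bound regions held more acetylation in water than the 771 DSS-enriched regions without HNF4A. At least 50 nucleosome tags in water were held by 152 of 229 bound regions (66.4%, interval 59.9 to 72.5) and by 273 of 771 unbound ones (35.4%, 32.0 to 38.9). Under 10 tags in water were held by 5.68% of bound and 18.4% of unbound regions. The unbound regions had medians of 93.0 nucleosome tags in DSS, against 31.0 in water, and a median log2 ratio of 1.52 (quartiles 1.04 and 2.16), so the median log2 ratio was 0.46 lower in bound regions (difference of -0.46). The deposited scores of bound and unbound regions were nearly the same, with medians of 0.00146 and 0.00143, and the score that made the list requires a larger ratio where tags are few.

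Arranged by the sum of nucleosome tags over both libraries, the share of regions with an HNF4A peak was 7.04% (3.90 to 11.5) in the lowest of 5 bins of nearly equal size, which held 14 bound regions, then 13.1%, 24.0% and 33.3%, and 36.8% (30.1 to 43.9) in the highest. Every region had passed the same cut on the score, which ties the ratio to the tag sum (Spearman correlation -0.61 over the 229 bound regions), so ratios within a bin are brought together by construction and are given as a description. In the lowest bin the median log2 ratios were 2.52 in bound and 2.54 in unbound regions, and in the highest bin 0.70 in bound and 0.88 in unbound regions. The difference of bound minus unbound was between -0.21 and 0.09 across the 5 bins, and the quartile ranges overlapped in each. The tag level moved with both HNF4A occupancy and the ratio, and its part in the overall difference of -0.46 was not tested.

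**Figure D3:**
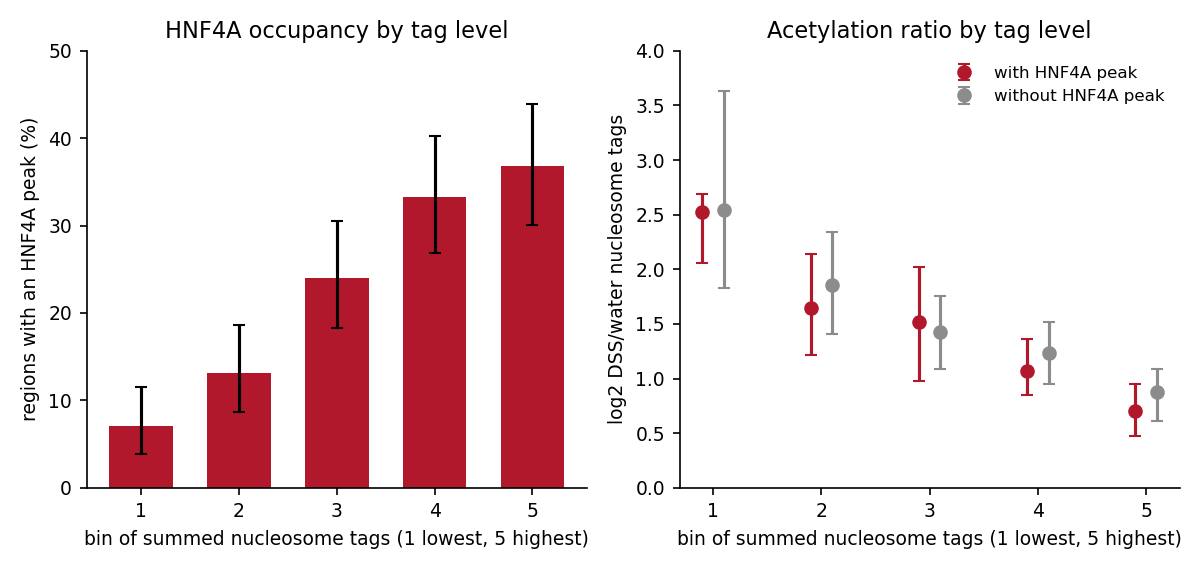
Left, the percentage of DSS-enriched regions with an HNF4A peak in each of 5 bins of summed nucleosome tags, with exact 95% intervals; right, median log2 DSS over water nucleosome ratio with quartiles for regions with (red) and without (grey) a peak. Occupancy climbs to 36.8% in the highest bin, against 7.04% in the lowest, and the medians of both kinds of region, tied to the tag sum by the score, lie within 0.21 of each other in every bin.

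The position of HNF4A within the acetylated region was not used to choose the regions beyond the overlap itself. A peak centre lay within 100 bp of the middle of the region in 106 of the 229 regions (46.3%). In 78 regions (34.1%) every peak centre lay more than 300 bp from the middle, towards or past the region's edge. In the DSS list 40.3% of the 139 occupied regions were centred (32.1 to 48.9), and in the water list 46.6% of 208 (39.7 to 53.7). Of the water-enriched regions with HNF4A, 56.2% of 329 were centred in the DSS list (50.7 to 61.7) and 56.9% of 459 in the water list (52.2 to 61.4), a difference not tested. Regions of one list overlap each other at some sites, so these intervals treat neighbouring regions as separate and are too narrow.

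**Figure D4:**
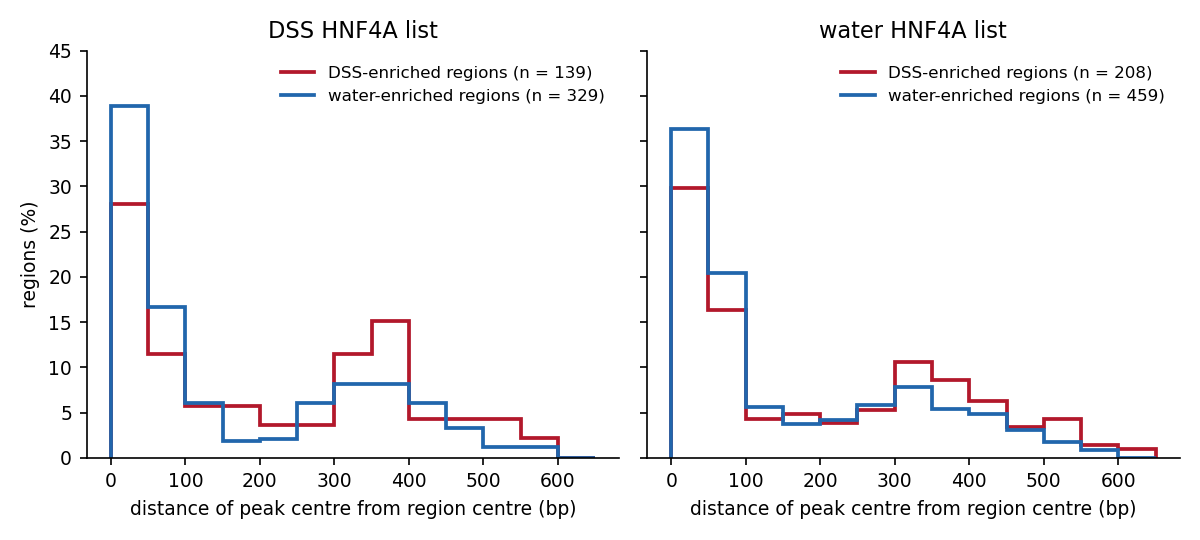
Distribution of the distance from the nearest HNF4A peak centre to the region centre in 50 bp steps, for HNF4A-bound DSS-enriched (red) and water-enriched (blue) regions, with peaks of the DSS list on the left and of the water list on the right. Both kinds of region have a main mode below 100 bp and a second one between 300 and 400 bp, and the share below 100 bp in the DSS list is 40.3% for DSS-enriched and 56.2% for water-enriched regions.

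Centred and off-centre regions differed in their linker tags. Centred regions had medians of 3.00 linker tags in DSS, against 6.00 in water, and off-centre regions 16.5 in DSS, against 25.5 in water. Nucleosome tags had medians of 160 in DSS, against 65.5 in water, for centred regions and of 142 in DSS, against 74.5 in water, for off-centre ones. Counting linker and nucleosome tags together, the median log2 ratio was 0.98 in centred and 0.66 in off-centre regions. Over all 229 regions, the linker held 7.71% of tags in DSS (7.48 to 7.95) and 20.8% in water (20.3 to 21.2), near the 7.97% in DSS and 22.4% in water of the whole DSS-enriched list. Tag-rich regions weigh most in these sums, and the median bound region had 3.50% of its tags on the linker in DSS, against 15.0% in water. The score by which the list was made subtracts linker from nucleosome signal.

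A lower linker count in DSS, with an interval below 1, was found in 63 of the 229 regions (27.5%), where 19.4% of the whole list passed. It was found in 32 of the 78 off-centre regions (41.0%) and 19 of the 106 centred ones (17.9%), but the median log2 linker ratios were close, at -0.85 in off-centre and -0.75 in centred regions. Off-centre regions held more linker tags, which makes their intervals narrower, so the 2 shares do not show a difference in the size of the linker change. With all tags counted, more than 2-fold more were found in DSS in 101 regions (44.1%, background 60.1%), and the interval lay above 1 in 185 (80.8%, background 86.4%). It lay below 1 in 12 regions (5.24%, background 2.60%), which thus held fewer H3K27ac tags in DSS although they are listed as DSS-enriched. The linker interval was below 1 in each of the 12, as a positive score with fewer tags in all requires fewer linker tags, so this is a description of how the list was made.

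In 4 of these 12 regions, named here after their values were seen, the scaled ratio of nucleosome tags was also below 1. On chromosome 2 (129073806 to 129074381) there were 194 nucleosome and 100 linker tags in DSS, against 219 nucleosome and 276 linker tags in water. On chromosome 3 (52453016 to 52453631) the counts were 144 nucleosome and 76 linker tags in DSS, against 152 nucleosome and 206 linker tags in water. On chromosome 10 (74975851 to 74976431) they were 366 nucleosome and 151 linker tags in DSS, against 379 nucleosome and 285 linker tags in water. The region on chromosome 1 (183782461 to 183782956) had its peak 34.5 bp from the middle and held 387 nucleosome and 0 linker tags in DSS, against 420 nucleosome and 36 linker tags in water. In these 4 regions the positive score came with fewer linker tags in DSS and no gain of nucleosome tags.

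The rank of HNF4A peak scores was next compared at the 98 one-to-one pairs of DSS and water peaks that lay on the bound regions. Ranks were taken among all 7343 such pairs so that both rankings have equal length. The rank was higher in DSS in 52 of the 98 pairs (53.1%, interval 42.7 to 63.2), where 49.8% of all pairs ranked higher in DSS. The median shift was 0.991 percentile points (quartiles -16.1 and 20.7). A shift of more than 20 points was upward in 26 pairs (26.5%) and downward in 16 (16.3%), and over all pairs 19.9% moved that far in each direction. On water-enriched regions 108 of 216 pairs ranked higher in DSS. The rank of HNF4A peaks on these regions moved in both directions. Ranks within 1 set of pairs cannot show a change of binding strength common to all pairs, and peaks found in only 1 list form no pair. A shift particular to the bound regions was not tested, with 1 library per group.

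**Figure D5:**
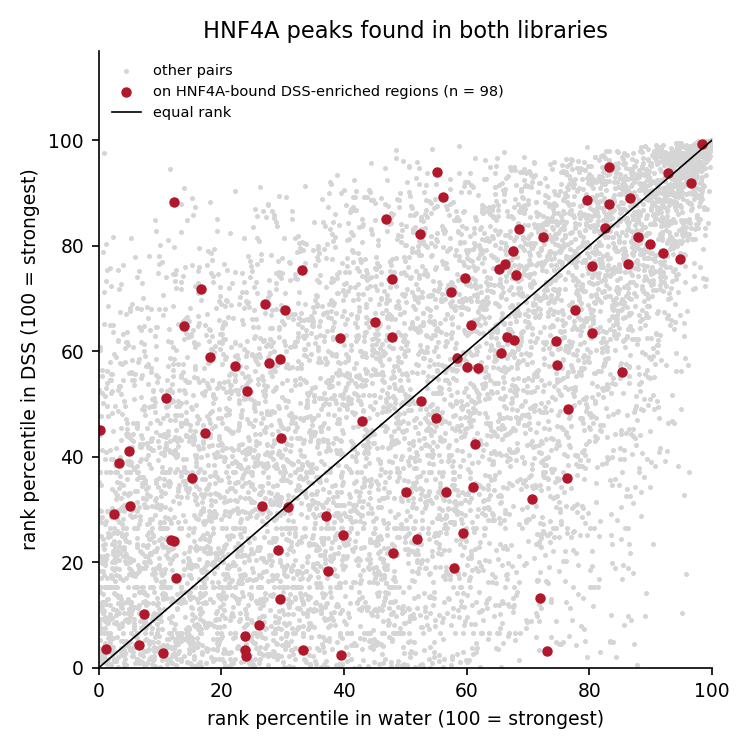
Rank percentile of HNF4A peak scores in DSS (vertical axis) and water (horizontal axis) among 7343 one-to-one pairs, where 100 is the strongest; the 98 pairs on HNF4A-bound DSS-enriched regions are red and the rest grey. Red points lie on both sides of the line of equal rank, 52 of 98 above it.

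HNF4A peaks on these regions were spread over the whole of their lists. The strongest peak of each region had a median rank percentile of 54.8 in the DSS list (n = 139, quartiles 28.3 and 76.6) and 55.2 in the water list (n = 208, quartiles 31.0 and 78.7). On water-enriched regions the medians were 63.5 in the DSS list (n = 329, quartiles 30.9 and 85.6) and 65.3 in the water list (n = 459, quartiles 38.8 and 84.0). Across the bound regions, the percentile of the peak and the log2 nucleosome ratio had a Spearman correlation of -0.18 in DSS (n = 139) and -0.16 in water (n = 208), given as a description, since regions share libraries and depth. The percentile of the peak and the sum of nucleosome tags, to which the score ties the ratio, had one of 0.26 in DSS and 0.14 in water. Where both peaks of a pair were present, their centres lay a median of 21.5 bp apart, and within 50 bp in 76 of the 98 pairs (77.6%), close to the 76.2% of all pairs.

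The bound regions lay a median of 22.0 kb from the authors' reference point, which the files do not name (n = 228, quartiles 10.1 and 48.7), and the unbound ones 21.5 kb. These distances have a floor set by the list, whose smallest distance was 2.01 kb. The 20 regions with an HNF4A peak in DSS only that had a distance lay a median of 10004 bp from the reference point (quartiles 4.44 and 14.8 kb), against 22.7 kb for regions with a water peak only and 23.3 kb for those with both. This difference was not tested. The class with a DSS peak only numbered 45 regions at equal list length, where the distance was not recomputed. Of the bound regions 13 (5.68%) were found within 10 kb of a water-enriched one, and of the unbound regions 34 (4.41%), and 4 bound regions overlapped a water-enriched one. Bound regions were scattered, and 45 of them formed 22 groups linked at gaps of up to 50 kb. Most of these groups were overlapping intervals, as 40 of the 45 regions overlapped another bound one. The largest group held 3 regions over 10.3 kb of chromosome 12 (112666501 to 112676816), of which 2 overlapped each other. Ratios of the 3 lay between 2.16 and 7.07, and the group contained 2 HNF4A peaks in DSS and 1 in water.

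The smallest overlaps that made a region a bound one were 3 bp on chromosome 3 (30975351 to 30975961; 148 nucleosome tags in DSS, 88 in water) and 8 bp on chromosome 17 (35950021 to 35950661; 178 in DSS, 152 in water). The nearest regions left out, both on chromosome 1, touched a peak (42562411 to 42562871; 89 in DSS, 27 in water) or lay 3 bp from one (193618456 to 193618941; 70 in DSS, 9 in water). Of the 771 regions without HNF4A, 188 (24.4%) lay within 2 kb of a peak. The bound region of lowest score, on chromosome 14 (41739821 to 41740426), ranked 999 of 1000 and held 70 nucleosome tags in DSS, against 17 in water.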

How the data were processed

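Per the submitters' processing notes, the files use the mouse build mm9 and were made with CASAVA 1.8.2 and MACS2, with no role or setting stated for either. The H3K27ac lists hold tag counts as deposited by the authors, from reads marked MAPQ20 per the file headers. The deposited score of a region equalled the square root of nucleosome minus that of linker counts, scaled by a library total, DSS minus water (largest residual 5.1e-10); this gave the library totals. The HNF4A lists hold a peak score as deposited, of unstated kind and unknown depth, used here only for ranks. Intervals were read as half-open; counting region starts from 1 would add 1 region, giving 230. Coordinates of regions are printed as in the files.

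Columns headed WT were read as water. Log2 ratios used a pseudocount of 0.5. Analyses used Python 3.11.15, numpy 2.4.6, pandas 2.3.3 and scipy 1.17.1, with interval and overlap code tested on simulated data. With 1 library per group no test was made. Intervals of ratios cover counting error only. Intervals of shares treat the regions, pairs or tags counted as separate, and those over regions are too narrow where regions overlap. None covers variation between libraries. A peak centre within 100 bp of the region centre was called centred and one beyond 300 bp off-centre.

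The regions, comparisons and naming rule were chosen with earlier results of these data known. By that rule the text names regions from the 6 of highest score per HNF4A class, the 6 with the highest lower bound of the ratio, the 4 with most water tags, the largest group, sex chromosomes and the edges of the selection. The gene table at hand is of GRCm38, so regions were not assigned to genes and no sequence is printed. Alternatives changed the overlap rule, peak lists, merging, scaling, pseudocount and tag type.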

Additional observations from a re-analysis of the deposited data

How the results depend on the processing

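No paired analysis was possible because each group had 1 library. Of 70 values recomputed for 10 results, 47 stayed within 1.5 times of the count or within the interval of the median. Most of these results are counts, tag medians or percentiles, which have no direction to change. The difference in log2 ratio from unbound regions was negative in each setting. The number of bound regions was 140 with a peak centre inside the region, 417 with peaks within 2 kb and 128 with peaks at or above the pooled median score. Under those settings, in the same order, 60, 243 and 61 regions held a peak in both lists, and 7, 31 and 6 lay near a water-enriched region (27 within 50 kb). Regions with a DSS peak only numbered 35 with peaks within 2 kb and 45 at equal list length; those with a water peak only numbered 139 with peaks within 2 kb, 42 at equal length and 44 with stronger peaks. More than 2-fold higher were 260 regions with peaks within 2 kb and 63 with stronger peaks. With peaks within 2 kb, the median log2 ratio was 1.15 and the median water count 58.0 tags. With all tags, chosen after the data were seen, the median log2 ratio was 0.90. The difference from unbound regions was -0.33 with a peak centre inside the region. The median water rank percentile was 73.4 at equal length and 78.7 with stronger peaks, as the construction of both settings requires. Leaving out the 3 regions on the strongest 1% of either HNF4A list moved no result beyond these bounds. With 1 library per group, the counting depth of H3K27ac limits single ratios, and the depth of HNF4A is unknown.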

Other observations

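A few HNF4A-bound regions lie in unusual places. On the mitochondrial genome, which has no histones, 1 region (11346 to 11936, named after its values were seen) held 35 nucleosome and 7 linker tags in DSS, against 18 nucleosome and 26 linker tags in water. It overlapped a DSS HNF4A peak ranked 8081 of 10688; the mitochondrial genome held 10 HNF4A peaks in DSS and 6 in water. The only bound region on a sex chromosome lay on X (10056646 to 10057226), with 46 nucleosome and 22 linker tags in DSS, against 43 nucleosome and 75 linker tags in water, so that all tags were lower in DSS (ratio 0.566, interval 0.414 to 0.769).

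Among autosomes, the share of DSS-enriched regions with an HNF4A peak was between 15.0% of 40 on chromosome 17 and 34.5% of 29 on chromosome 18. An overlapping pair on chromosome 19 was among the 4 regions with most water tags: 731 nucleosome tags in DSS and 470 in water (61341141 to 61341711), and 733 in DSS and 491 in water (61341511 to 61342111), both on 1 HNF4A peak ranked 5151 in DSS and 6646 in water. Windows of 100 kb with 10 or more water HNF4A peaks held 4 of the 229 bound regions and 3 of the 771 unbound ones. These windows were chosen by the same peaks that make a region a bound one, so a larger share of bound regions there is built in.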
